A study of Mus musculus with 50 samples.

Results

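Collagen genes were followed through 50 libraries of polyadenylated RNA from lymph nodes of mice. The members were every gene entry named Col, a number, a and a number that had any count. They were 44 of the 56600 gene entries, and 38 of them passed the filter on low counts and were among the 18387 genes tested. The mice, of genotype C57B6 per the labels, were taken at postnatal day 56 and were offspring of dams held on 1 of 2 diets from 3 weeks before breeding. The sufficient (control) diet held vitamin A at 20 IU/g, and the deficient diet had the same ingredients without added vitamin A. Within each diet, 5 libraries were made from each of the duodenal, jejunal, ileal and colonic nodes, which drain the gut, and 5 from inguinal nodes, which drain skin. All 25 deficient libraries came from females, whereas of the sufficient libraries 10 came from females (numbers 1 and 2 of each node) and 15 from males (numbers 3, 4 and 5). Litter and dam differ between the diets throughout and cannot be told apart from them. The labels do not tie nodes to individual mice, so each p-value below covers the variation among these libraries and may be partly technical.

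Collagens are matrix proteins built of 3 chains wound into a helix, and each chain is the product of its own gene. Fibrillar collagens form the banded fibres of connective tissue, type IV collagen forms the mesh of basement membranes, and FACITs (fibril-associated collagens with interrupted helices) decorate the surface of fibres. In lymph nodes, fibroblastic reticular cells wrap collagen fibres and a basement membrane into conduits that carry lymph fluid through the tissue, and the capsule and vessel adventitia hold thicker fibre bundles. The members fell into 11 fibrillar, 6 basement membrane, 9 FACIT and 7 beaded filament (type VI) and related genes. The remainder were 2 multiplexins, 4 network-forming or anchoring genes, 4 transmembrane collagens and Col26a1.

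Estimated counts totalled 5335369 to 8904722 per library, with a median of 7640371, and 0.0882% to 0.234% of them came from collagen genes. A group of 10 deficient libraries held 1.03% to 1.70% of their counts in Gm19220, against 5.37% to 9.83% in the other 40. They were unevenly spread: deficient inguinal and colonic libraries 2, 3 and 5, ileal libraries 2 and 3, duodenal library 3 and jejunal library 3. Fits without them keep only libraries 1 and 4 of the deficient inguinal and colonic nodes. The list of 10 pancreatic acinar genes took 16.3% of counts in sufficient duodenal library 5 and 14.6% in deficient duodenal library 4, against at most 2.34% in the other 48. In both of these libraries collagens took the smallest shares, 0.0882% and 0.0956%. Markers of lymph node stroma (Ccl19, Ccl21a, Pdpn and the rest of the list of 10) and of B and T cells were found in every group, with no marker of these lists at 0. Levels below are CPM, counts scaled to a common library size with TMM normalisation. In bulk tissue, fewer cells of a type and less RNA per cell cannot be told apart.

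The fibrillar genes supplied 40% to 57.5% of collagen CPM in a library (median 50.8%), basement membrane genes 15% to 25.5%, beaded filament genes 14% to 24.4% and FACITs 3.77% to 12.9%. Col1a1 and Col1a2, the chains of type I collagen, Col3a1, the chain of the reticular fibre collagen, and Col4a1 and Col4a2, the common chains of basement membrane, together held 60% of it. Per kilobase of the longest annotated transcript, Col3a1 was the most abundant at a mean level of 47.4 CPM over the 50 libraries. Col1a2 followed at 43.9, Col4a1 at 27.2, Col1a1 at 24.5 and Col6a1, a core chain of type VI collagen, at 22.3 CPM per kilobase. The lowest tested member of the fibrillar class was Col11a1, at 0.0515 CPM per kilobase. Within the other classes the highest and lowest tested members per kilobase were Col4a1 and Col4a4 (0.0606), Col14a1 (7.14) and Col22a1 (0.335), and Col6a1 and Col28a1 (0.527). The 6 members that were not tested never exceeded 1.32 CPM (Col2a1), 1.13 CPM (Col8a1), 0.982 CPM (Col25a1), 0.620 CPM (Col10a1), 0.563 CPM (Col9a1) and 0.398 CPM (Col19a1) in any library. Col2a1, Col9a1 and Col10a1 are cartilage collagens.

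Summed levels of fibrillar genes ranked the nodes in nearly the same way on both diets, while other classes did not all follow that order. Fibrillar genes summed to 571 ± 64.9 CPM (mean ± SD, n = 5 libraries) in sufficient inguinal nodes and to 762 ± 84.3, 964 ± 141, 876 ± 156 and 804 ± 79.8 CPM in nodes of the duodenum, jejunum, ileum and colon. With the deficient diet they summed to 540 ± 123 CPM in inguinal nodes and 861 ± 197, 933 ± 150, 873 ± 108 and 737 ± 183 CPM in the same 4 gut-draining nodes. Jejunal nodes thus had the highest fibrillar mean and inguinal nodes the lowest on either diet, while the SDs of neighbouring gut-draining nodes overlapped. FACITs summed to 188 ± 13.9 CPM in sufficient and 132 ± 18.2 CPM in deficient jejunal nodes, and to 59.4 ± 10.2 and 54.1 ± 5.07 CPM in inguinal nodes. Their duodenal and ileal means were 145 and 157 CPM on the sufficient diet and 122 and 103 CPM on the deficient diet, in reverse order. Beaded filament genes averaged 245 CPM in sufficient inguinal and 232 CPM in sufficient duodenal nodes. Multiplexins had their highest deficient mean in inguinal nodes (66.9 CPM). Basement membrane genes reached 419 ± 52.2 CPM in deficient ileal nodes, against 308 ± 22.2 CPM in sufficient ileal nodes. Their mean was higher on the deficient diet in the other nodes too. It was 314 against 245 CPM in duodenal, 371 against 328 in jejunal, 324 against 278 in colonic and 250 against 220 in inguinal nodes. These sums are descriptions and carry no test.

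**Figure D1:**
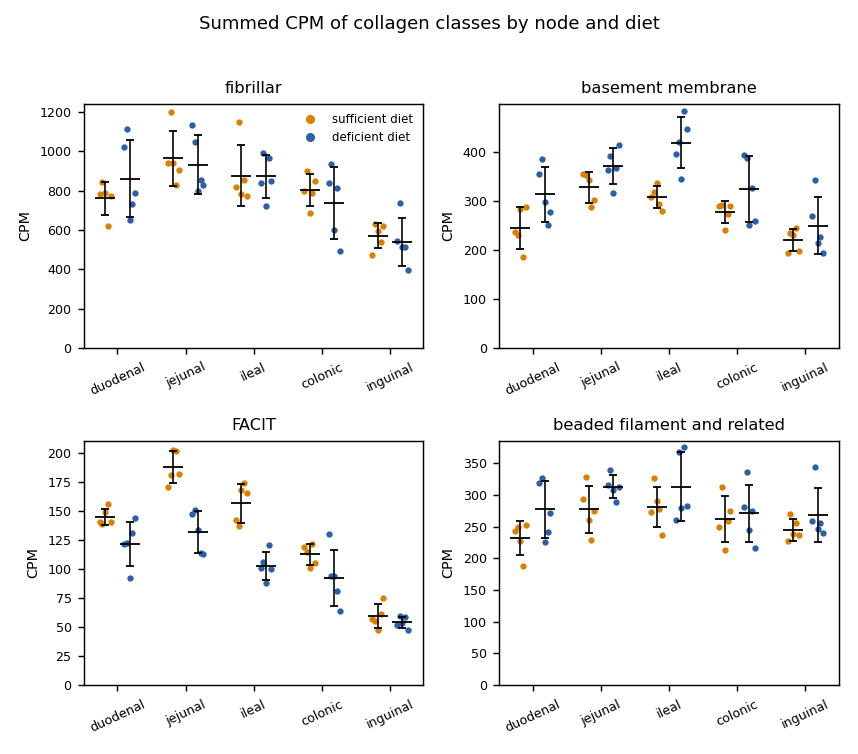
Summed CPM of 4 collagen classes (vertical axes, CPM) in each lymph node (horizontal axis). Points are the 5 libraries of a group, black bars the mean and SD, orange the sufficient and blue the deficient diet; the FACIT sum is lowest in inguinal nodes on both diets (means 59.4 and 54.1 CPM).

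The first comparison set the 4 gut-draining nodes against the inguinal node, which receives lymph from skin. On the sufficient diet 10 collagens were higher and 1 was lower in gut-draining nodes, out of 38 tested. Calls rest on an adjusted p under 0.05 in edgeR's quasi-likelihood test with Benjamini-Hochberg adjustment, which called 16.9% of all genes in this comparison, 9.69% as higher in gut-draining nodes and 7.22% as lower. The median log2 fold change of the 38 members was 0.17, against -0.01 for all genes. With the deficient diet 10 were higher and 1 lower as well, with 5.71% of all genes called (3.71% higher and 2% lower) and a member median of 0.25 against -0.01. Of the 11 calls on each diet 8 were shared, 72.7% of either list: Col12a1, Col14a1, Col1a2, Col3a1, Col4a2, Col5a1, Col5a2 and Col6a5.

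The FACITs Col14a1 and Col12a1, which bind along the surface of type I collagen fibres, differed most firmly. Col14a1 stood at 15.1, 13.3, 14.2, 11.9 and 21.3 CPM in the 5 sufficient inguinal libraries and at 32.7 to 84 CPM (median 60) in the 20 sufficient gut-draining libraries. The 2 sides did not overlap, and the colonic libraries were the lowest of the gut-draining ones. The difference was a log2 fold change of 1.94 ± 0.16 (SE; adjusted p = 1.7e-12). In deficient libraries Col14a1 measured 12.5, 11.5, 10.2, 13.2 and 6.76 CPM in inguinal and 21.8 to 81.8 CPM (median 49.8) in gut-draining libraries, again without overlap, and rose by 2.15 ± 0.17 (adjusted p = 2.8e-13). Col14a1 lies on chromosome 15 at 55307750 to 55520803 and Col12a1 on chromosome 9 at 79598991 to 79718831 (GENCODE M21, GRCm38).

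Col12a1 stood at 20.4, 13.3, 12.7, 14 and 17.9 CPM in sufficient inguinal libraries and at 32.2 to 76.1 CPM (median 51) in sufficient gut-draining libraries. These sides did not overlap, and Col12a1 was higher by a log2 fold change of 1.62 ± 0.13 (adjusted p = 3.9e-13). Under the deficient diet its inguinal levels were 9.43, 13.8, 9.45, 16.1 and 11.8 CPM and the gut-draining ones 12.3 to 44.6 CPM (median 25.5). Here the ranges overlapped, since ileal libraries came down to 12.3 CPM, and the difference was 1.08 ± 0.13 (adjusted p = 2.9e-08). The test of whether the Col12a1 difference itself changed with diet gave -0.54 ± 0.17 (adjusted p = 0.129).

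**Figure D2:**
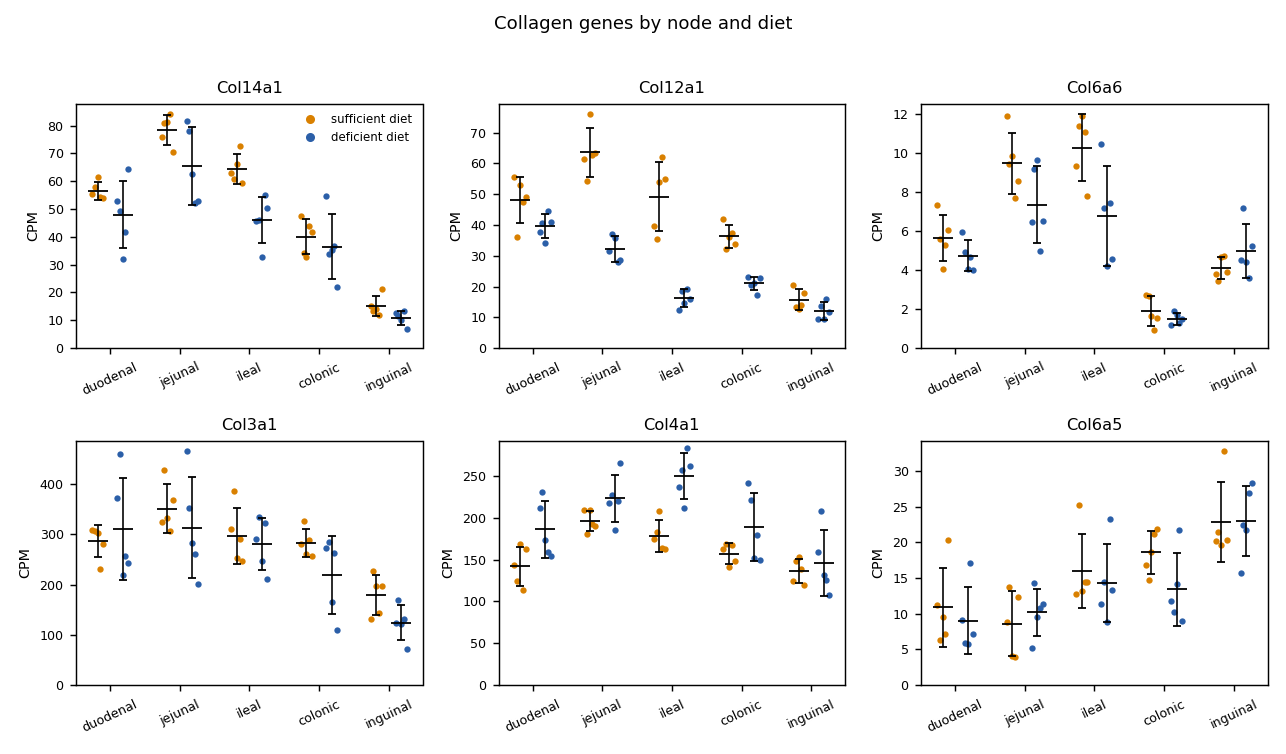
Levels (vertical axes, CPM) of 6 collagen genes by lymph node (horizontal axis), with points for the 5 libraries of a group, black bars for mean and SD, orange for the sufficient and blue for the deficient diet. Col14a1 and Col12a1 are low in inguinal nodes (means 10.8 to 15.7 CPM), Col6a6 is lowest in colonic nodes (means 1.91 and 1.51 CPM), and Col6a5 has its highest means in inguinal nodes (22.9 and 23 CPM).

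Among fibrillar genes, 5 of the 10 tested were higher in gut-draining nodes on each diet and none was lower. Col3a1 measured 132, 227, 197, 143 and 197 CPM in sufficient inguinal libraries and 231 to 428 CPM (median 304) in gut-draining ones, which did not overlap (log2 fold change 0.75 ± 0.18, adjusted p = 0.002). In deficient inguinal libraries it measured 124, 170, 122, 131 and 71.5 CPM, against 110 to 466 CPM (median 267) in gut-draining libraries. The deficient sides overlapped through 2 colonic libraries at 110 and 166 CPM, and the log2 fold change was 1.17 ± 0.18 (adjusted p = 1.4e-05). Col5a2 and Col5a1, chains of the type V collagen that starts fibre assembly, were higher by 0.89 ± 0.13 (adjusted p = 2.7e-06) and 0.63 ± 0.13 (adjusted p = 6.0e-04) on the sufficient diet. With the deficient diet the log2 fold changes were 0.78 for Col5a2 and 0.53 for Col5a1, both called. The sufficient call of Col3a1 was lost with female mice only, and the deficient call of Col5a1 without deficient library 4 of each node and without the 10 libraries low in Gm19220.

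Type I collagen differed less. Col1a2 was higher by a log2 fold change of 0.47 ± 0.11 (adjusted p = 0.0021) on the sufficient and 0.45 ± 0.11 (adjusted p = 0.007) on the deficient diet, the latter lost without deficient library 1 of each node. Its partner chain Col1a1 measured 90.7, 114, 102, 109 and 108 CPM in sufficient inguinal libraries and 71.8 to 229 CPM (median 135) in gut-draining ones, and did not pass there (adjusted p = 0.097). On the deficient diet Col1a1 passed with 0.54 ± 0.16 (adjusted p = 0.0367), a call that was lost in 8 of 16 alternatives, among them the fit without the 10 libraries low in Gm19220. Col5a3, another type V chain, was called on the sufficient diet only (1.45 ± 0.40, adjusted p = 0.00931), but the interaction with diet was not called (adjusted p = 0.417). The Col5a3 call was lost without sufficient library 5 of each node and with female mice only.

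The gene for Col3a1 starts on chromosome 1 and that for Col5a1 on chromosome 2, and both genes lie on the plus strand. The 250 bases before their RefSeq starts (GRCm38.p6) are shown because both members were called higher in gut-draining nodes on either diet and their promoters differ in composition, 35.2% and 76.4% G and C against a median of 52.4% over 32851 windows of this length. Capitals mark matches on either strand to any of 4 motifs: the GC box GGGCGG, the box named for its letters CCAAT, the TATA box TATAAA, and AGGTCA (the core letters of retinoic acid receptor sites). The windows are chr1:45311288-45311537 and chr2:27886175-27886424.
Col3a1: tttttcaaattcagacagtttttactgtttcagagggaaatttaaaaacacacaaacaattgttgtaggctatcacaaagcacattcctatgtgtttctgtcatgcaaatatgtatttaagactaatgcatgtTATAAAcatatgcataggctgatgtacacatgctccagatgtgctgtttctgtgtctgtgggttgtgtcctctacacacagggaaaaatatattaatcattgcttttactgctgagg
Col5a1: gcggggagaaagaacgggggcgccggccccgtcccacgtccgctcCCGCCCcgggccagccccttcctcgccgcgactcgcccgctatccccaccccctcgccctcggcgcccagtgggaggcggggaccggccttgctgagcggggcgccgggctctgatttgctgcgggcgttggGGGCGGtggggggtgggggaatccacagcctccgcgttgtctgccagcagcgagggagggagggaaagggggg
The Col3a1 window holds 1 TATAAA and no GC box, and the Col5a1 window holds 2 GC boxes. Among the 38 windows of 35 collagen genes in the table, 57.9% held GGGCGG, against 32.7% of all windows. AGGTCA was found in 21.1% of collagen windows and 14% of all, TATAAA in 13.2% and 12.4%, and CCAAT in 34.2% and 33.8%. A match is only a match of letters, and its absence says nothing of a factor. Col1a1, Col2a1, Col4a3, Col5a2, Col9a3, Col12a1, Col14a1, Col22a1 and Col26a1 were not matched in the table.

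Basement membrane genes were represented by 2 calls on each diet. Col4a1 and Col4a2 lie head to head on chromosome 8 and their gene bodies overlap by 22 bases, and they encode the 2 chains that pair in most basement membranes. Col4a2 was higher by a log2 fold change of 0.47 ± 0.13 (adjusted p = 0.00692) on the sufficient and 0.49 ± 0.13 (adjusted p = 0.00911) on the deficient diet. The sufficient Col4a2 call was lost without library 1 of each node, and the deficient one without library 5 of each node and without the 10 libraries low in Gm19220. Col4a1 measured 124, 148, 153, 139 and 120 CPM in sufficient inguinal libraries against 114 to 209 CPM (median 167) in gut-draining ones and missed the threshold (adjusted p = 0.0634). It passed on the deficient diet (0.52 ± 0.11, adjusted p = 0.00154), where inguinal libraries measured 159, 208, 131, 125 and 108 CPM and gut-draining libraries 150 to 283 CPM (median 219). The count ratio of Col4a1 to Col4a2 stayed between 1.08 and 2.20 in all 50 libraries, and no group mean lay outside 1.40 to 1.70. Col4a5, an X-linked chain best known from the kidney, was called on the sufficient diet only, at 1.09 to 2.25 CPM in inguinal and 1.51 to 6.08 CPM in gut-draining libraries (1.44 ± 0.27, adjusted p = 1.3e-04; interaction with diet, adjusted p = 0.173).

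The type VI chains split. Col6a1, Col6a2 and Col6a3, which form the classic beaded filament, were not called in either diet. Their mean levels in sufficient inguinal nodes were 77.2 ± 8.77, 52.7 ± 8.03 and 48.8 ± 9.19 CPM. In sufficient jejunal nodes they were 96.2 ± 21.1, 63 ± 13.6 and 57.3 ± 14.1 CPM. Col6a5, one of 3 neighbouring genes on chromosome 9 for alternative chains, was the only collagen lower in gut-draining nodes. It measured 20.2, 21.5, 19.6, 32.8 and 20.4 CPM in sufficient inguinal libraries and 4.01 to 25.2 CPM (median 13.5) in gut-draining ones, with overlap in duodenal, ileal and colonic libraries (-0.83 ± 0.23, adjusted p = 0.0101). On the deficient diet it measured 15.7, 22.4, 21.7, 26.9 and 28.3 CPM in inguinal and 5.17 to 23.3 CPM (median 11) in gut-draining libraries (-1 ± 0.23, adjusted p = 0.00319). The sufficient call was lost with female mice only and without library 4 of each node. The deficient one was lost without the 10 libraries low in Gm19220 (-0.74 to -1.15 over all alternatives).

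The multiplexins Col15a1 and Col18a1, which sit between basement membrane and surrounding matrix, were not called. Col15a1 averaged 44.4 ± 9.84 CPM in sufficient inguinal nodes, 31.9 ± 10.4 in duodenal and 43.5 ± 7.20 in jejunal nodes. Col18a1 averaged 15.4 ± 4.40 CPM in inguinal and 18.2 ± 2.25 CPM in jejunal nodes. The FACITs Col16a1 and Col22a1 were each called on 1 diet: Col16a1 on the sufficient (0.85 ± 0.20, adjusted p = 0.00151) and Col22a1 on the deficient diet (1.37 ± 0.36, adjusted p = 0.0125). The Col16a1 call was lost with female mice only. Neither interaction with diet was called, with adjusted p = 0.374 and adjusted p = 0.155. Col22a1 reached at most 8.49 CPM in any library, and its call was lost without any one of deficient libraries 1, 2 or 3 of each node and without the 10 libraries low in Gm19220.

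**Figure D3:**
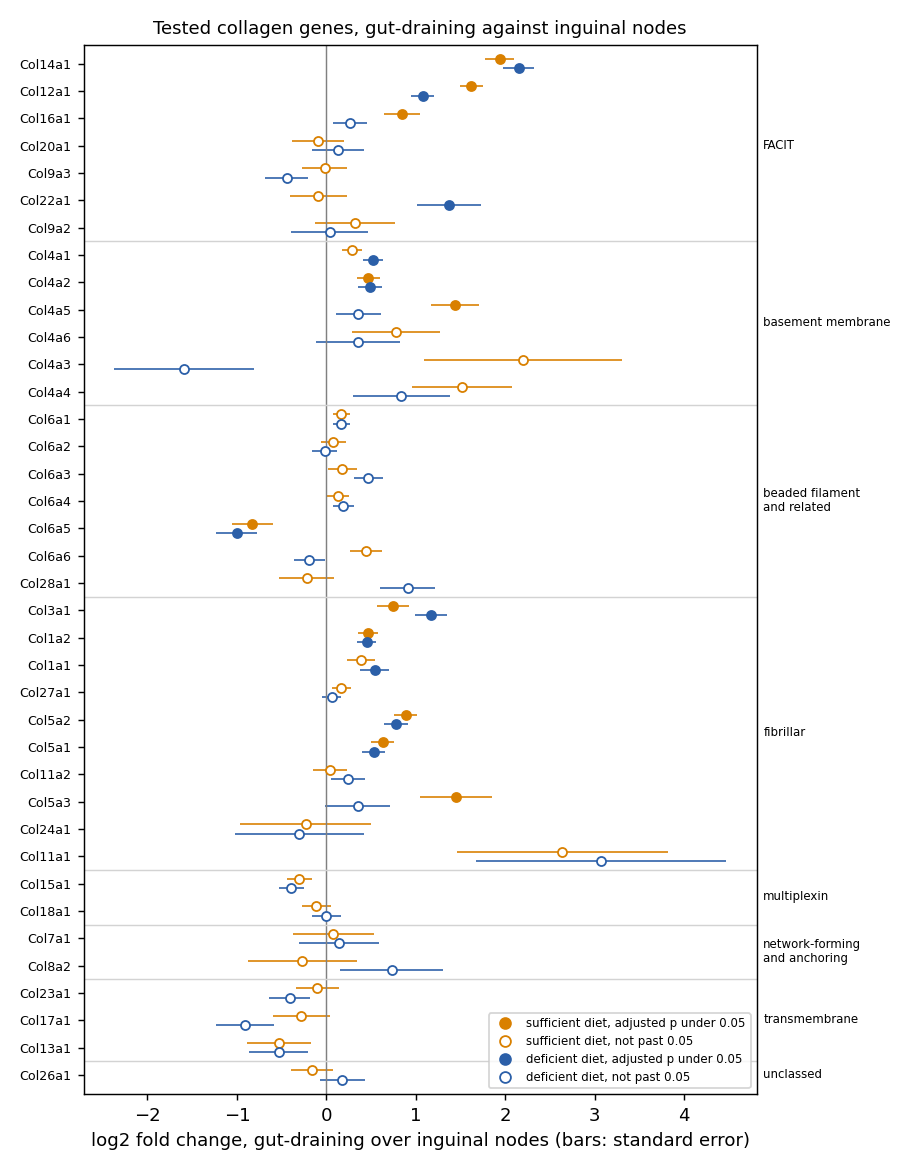
Log2 fold change (horizontal axis) of gut-draining over inguinal nodes for the 38 tested collagens (vertical axis, grouped by class), orange for the sufficient and blue for the deficient diet. Points are edgeR estimates, bars the standard error and filled points calls; 10 genes per diet are filled to the right of 0 and Col6a5 alone to the left.

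Markers of other cells moved with this comparison. The 12 markers of adventitial and capsular fibroblasts summed to 516 to 898 CPM in sufficient inguinal libraries and to 687 to 1642 CPM in sufficient gut-draining libraries, with 6 higher and 1 lower. Deficient sums were 579 to 1234 and 593 to 1351 CPM, with 5 higher and 1 lower. The 8 lymphatic endothelial markers were all higher on the sufficient diet (1176 to 1463 CPM against 1480 to 2775) and 6 were higher on the deficient diet. Of 8 adipocyte markers 4 were higher on the sufficient and 0 on the deficient diet by edgeR, with sums of 92.9 to 1161 CPM in sufficient inguinal and 202 to 2713 CPM in sufficient gut-draining libraries. The 10 reticular stroma markers split, with 5 higher and 4 lower on the sufficient diet (1402 to 1764 CPM in inguinal and 1420 to 2988 CPM in gut-draining libraries) and 3 higher and 4 lower on the deficient diet. Pdpn and Ccl21a belong to both the reticular stroma and the lymphatic endothelial list and were among the higher markers on the sufficient diet. The counts and sums of these lists are therefore not separate readings. Of 8 blood endothelial markers 5 were higher and 0 lower on the sufficient diet, and 1 was higher and 2 lower on the deficient diet. Of 8 pericyte and smooth muscle markers 3 were lower and 0 higher on each diet. B cell markers were lower in 6 of 6 on the sufficient and 5 of 6 on the deficient diet, and T cell markers in 4 of 7 and 0 of 7. No marker of these 8 lists was at 0. Of 10 pancreatic acinar markers 9 were higher and 0 lower on the sufficient diet, and 0 were called on the deficient diet by edgeR. Their sums reached 297539 CPM in sufficient duodenal and at most 196 CPM in sufficient inguinal libraries. Of 6 mesothelial markers 2 were higher and 0 lower on the sufficient diet, and 1 was higher and 1 lower on the deficient diet. The part of all these markers in the collagen differences was not tested.

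Genes that modify and cross-link collagen chains were looked at next, in a list of 35 enzymes and helpers of which 33 were tested. On the sufficient diet 16 were higher and 1 lower in gut-draining nodes, with a list median of 0.49, where 9.69% of all genes were higher and 7.22% lower. Under the deficient diet 9 were higher and 0 lower, with a median of 0.20, where 3.71% of all genes were higher and 2% lower. The lysyl oxidases Loxl2 and Loxl1, which cross-link fibres outside the cell, were higher by 1.25 ± 0.15 (adjusted p = 1.1e-08) and 1.04 ± 0.18 (adjusted p = 2.4e-05) on the sufficient diet. In deficient libraries Loxl1 was higher by 1.51 ± 0.18 (adjusted p = 4.6e-08) and Loxl2 by 1.12 ± 0.15 (adjusted p = 3.1e-07). Serpinh1, a chaperone that binds procollagen in the cell, was higher by 0.81 ± 0.13 on the sufficient diet (adjusted p = 6.5e-06). P3h3, of the prolyl hydroxylase family, was higher by 0.53 ± 0.10 on the deficient diet (adjusted p = 3.9e-04).

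Loxl2 measured 8.74, 8.86, 8.76, 7.61 and 9.40 CPM in sufficient inguinal libraries, and no sufficient gut-draining library lay below 11.1 CPM. Of 10 tested collagen receptors, 3 were higher on the sufficient diet: the integrin chain Itga1 (0.57 ± 0.06, adjusted p = 2.1e-09), the receptor kinase Ddr2 (0.50 ± 0.14, adjusted p = 0.00724) and the uptake receptor Mrc2 (0.81 ± 0.23, adjusted p = 0.00885). Mrc2 (1.23 ± 0.23, adjusted p = 2.8e-04) and Itga1 (0.24 ± 0.06, adjusted p = 0.00876) were higher on the deficient diet. The sufficient Mrc2 call was lost without library 1 or library 2 of each node, that of Ddr2 with female mice only, and the deficient Itga1 call with no filter and without the 10 libraries low in Gm19220. Itga1, which pairs with Itgb1 as a receptor for collagens, was the only receptor whose regional difference changed with diet (-0.33 ± 0.08, adjusted p = 0.0399). That interaction was lost in 16 of 21 alternatives.

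Small intestinal nodes were compared with colonic nodes, as the title of the study names small intestinal identity. Among sufficient libraries 3 collagens were higher in small intestinal nodes (2.65% of all genes were) and 0 lower, with 3.83% of all genes called in either direction. Among deficient libraries 2 were higher (1.27% of all genes) and 0 lower, with 1.77% called in either direction. By edgeR 6 and 5 members had an unadjusted p under 0.05. The medians of the 38 members were -0.02 and 0.14, against -0.02 and -0.01 for all genes. Col6a6, an alternative type VI chain on chromosome 9 at 105687809 to 105828160, showed the largest difference of these calls. Its sufficient levels were 7.33, 5.6, 4.07, 5.28 and 6.08 CPM in duodenal, 11.9, 9.47, 9.84, 7.73 and 8.59 CPM in jejunal, and 9.37, 11.4, 11.9, 11.1 and 7.79 CPM in ileal libraries. In sufficient colonic libraries it measured 2.72, 2.69, 1.64, 0.932 and 1.55 CPM. Every small intestinal library lay above every colonic one, and the log2 fold change was 2.13 ± 0.22 (adjusted p = 1.9e-09).

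The same separation of Col6a6 was seen on the deficient diet. Colonic libraries measured 1.17, 1.92, 1.71, 1.29 and 1.48 CPM, against 4.02 to 10.5 CPM (median 5.97) in the 15 small intestinal libraries, without overlap. The log2 fold change was 2.01 ± 0.21 (adjusted p = 1.9e-08). In inguinal nodes Col6a6 averaged 4.13 ± 0.563 CPM on the sufficient and 4.99 ± 1.37 CPM on the deficient diet, above every colonic library's level in both cases. Col6a6 therefore followed another order than its neighbour Col6a5, whose sufficient means were lowest in jejunal (8.62 ± 4.53 CPM) and highest in inguinal nodes (22.9 ± 5.58 CPM).

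Col14a1 was higher in small intestinal than in colonic nodes by 0.72 ± 0.15 (adjusted p = 0.00172) on the sufficient diet. Its sufficient colonic libraries measured 47.5, 34.3, 32.7, 43.8 and 41.6 CPM, below the small intestinal range of 53.8 to 84 CPM. On the deficient diet the difference was 0.53 ± 0.15 (adjusted p = 0.0498), and that call was lost in 8 of 16 alternatives. Col12a1 was higher in small intestinal nodes on the sufficient diet by 0.54 ± 0.12 (adjusted p = 0.00337), with overlapping ranges. Both sufficient calls were lost when only female mice were kept, which leaves 2 sufficient libraries per node, while that of Col6a6 remained (1.73 ± 0.33, adjusted p = 0.0106).

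Of the maturation genes, Sec23a (0.39 ± 0.08, adjusted p = 0.00136), which coats transport vesicles, Fkbp10 (0.56 ± 0.14, adjusted p = 0.00863), a collagen folding isomerase, and Tll1 (0.92 ± 0.23, adjusted p = 0.011), a procollagen protease, were higher in sufficient small intestinal nodes and 0 were lower. All 3 calls were lost with female mice only, those of Fkbp10 and Tll1 also without library 3 of each node, and that of Tll1 with no sex term. In deficient nodes Loxl3 alone was called (0.60 ± 0.14, adjusted p = 0.00984), a call lost in 4 of 16 alternatives. Of the receptors, 5 were higher on the sufficient diet, led by Itga1 (0.40 ± 0.06, adjusted p = 2.6e-05), the inhibitory receptor Lair1 (0.77 ± 0.15, adjusted p = 6.0e-04) and Itgb1 (0.26 ± 0.05, adjusted p = 0.00164), and these 3 calls were lost with female mice only. In deficient nodes 0 receptors were called by edgeR. Of the 12 fibroblast markers 1 was higher on each diet, and of the 8 lymphatic endothelial markers 4 were higher on the sufficient and 0 on the deficient diet. Blood endothelial markers were higher in 4 of 8 and 1 of 8, B cell markers lower in 4 of 6 and 2 of 6, and mesothelial markers lower in 3 of 6 and 2 of 6. Their part in the collagen differences was not tested.

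Duodenal and ileal nodes mark the ends of the small intestine. On the sufficient diet 1 collagen was higher and 3 were lower in duodenal nodes (8.07% of all genes called, 3.05% higher and 5.03% lower). On the deficient diet 1 was higher and 0 lower (5.6% called, 2.9% higher and 2.7% lower). The 2 lists shared 0 genes. The sufficient calls were Col27a1, a fibrillar chain best known from cartilage (-0.58 ± 0.14, adjusted p = 0.00488), Col6a6 (-0.87 ± 0.22, adjusted p = 0.00634), Col5a1 (-0.53 ± 0.16, adjusted p = 0.0351) and Col7a1 (2.28 ± 0.58, adjusted p = 0.00823). The sufficient duodenal Col6a6 levels, 4.07 to 7.33 CPM, lay below all ileal ones, 7.79 to 11.9 CPM. All 3 lower calls were lost with female mice only and without sufficient library 3 of each node, those of Col27a1 and Col5a1 also without library 4, and that of Col5a1 also without library 2.

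The call of Col7a1, the collagen of anchoring fibrils under epithelia, depended on 1 library. Col7a1 measured 9.12, 7.32, 9.24, 10.7 and 77.2 CPM in sufficient duodenal libraries and 2.99, 5.78, 4.78, 2.93 and 4.19 CPM in ileal ones. Every sufficient duodenal library, not only the highest, lay above every sufficient ileal one. The library at 77.2 CPM is the one with 16.3% of counts in pancreatic genes. In deficient duodenal nodes the levels were 6.76, 9.82, 13.7, 48.9 and 3.10 CPM, and the library at 48.9 CPM is the one with 14.6% pancreatic genes. All 10 pancreatic markers were higher in duodenal nodes on both diets. Without these 2 libraries Col7a1 was higher by 1.15 ± 0.43 and not called, and the call was also lost without sufficient library 5 of each node, with limma-voom and with female mice only. Those 2 libraries also had the highest sums of the 8 markers of mammary and skin epithelium in their groups, 96.3 and 88.6 CPM, with Wap, Krt5 and Krt15 at 0 in both duodenal groups. Their part in the Col7a1 level was not tested.

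The deficient duodenal against ileal call was Col12a1. It measured 37.6, 40.7, 34.2, 44.6 and 40.9 CPM in deficient duodenal and 12.3, 18.7, 14.5, 19.3 and 16 CPM in deficient ileal libraries. The groups were far apart, with a log2 fold change of 1.29 ± 0.15 (adjusted p = 4.0e-08). On the sufficient diet the corresponding levels were 55.6, 36, 53, 47.5 and 49.1 CPM in duodenal and 39.7, 35.3, 54.1, 62.1 and 54.8 CPM in ileal libraries. Those ranges overlapped almost fully and the test did not pass (adjusted p = 0.967).

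Of the 33 maturation genes tested, 7 were lower and 0 higher in sufficient duodenal nodes and 26 were not called, where 5.03% of all genes were lower and 3.05% higher. In deficient duodenal nodes 6 were lower, 0 higher and 27 not called, where 2.7% of all genes were lower and 2.9% higher. Plod1, a lysyl hydroxylase that prepares chains for cross-linking, measured 47.6, 38, 48.1, 37.4 and 40.7 CPM in sufficient duodenal and 80.7, 88.3, 93.5, 100 and 58.5 CPM in ileal libraries. The 2 groups did not overlap on either diet, and Plod1 was lower by log2 fold changes of -0.99 ± 0.13 (adjusted p = 6.6e-07) and -0.69 ± 0.13 (adjusted p = 2.1e-04). Colgalt1, which adds galactose to hydroxylysine, was lower by -0.27 ± 0.05 (adjusted p = 5.4e-04) and -0.26 ± 0.05 (adjusted p = 0.001). Loxl2 was lower by -0.79 ± 0.17 (adjusted p = 0.00104) and -0.81 ± 0.17 (adjusted p = 9.6e-04). The receptor Itga1 was lower on the sufficient diet (-0.30 ± 0.07, adjusted p = 0.00681). With female mice only the sufficient calls of Colgalt1, Loxl2 and Itga1 were lost, and that of Itga1 also without sufficient library 3 of each node.

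Endothelial markers moved with this comparison as well. On the sufficient diet 6 of 8 blood endothelial markers were lower and 1 higher in duodenal nodes, with sums of 778 to 922 CPM against 1213 to 1524 CPM in ileal nodes. Of 8 lymphatic endothelial markers 6 were lower and 0 higher, although their sums overlapped, at 1933 to 2775 and 1902 to 2588 CPM. In deficient libraries 4 blood endothelial markers were lower, and 5 lymphatic endothelial markers were lower and 1 higher. Their part in the differences of Plod1, Loxl2 and the collagens was not tested.

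The diets were then compared within each node. Litter and dam differ with diet and all deficient libraries are female, so a rise or fall below is a difference between groups. These comparisons share no libraries with each other, but they are not independent repeats. They share the same fit and its sex term, which only the sufficient libraries inform. Same-number libraries of different nodes were also more alike than others. In duodenal nodes 0 collagens were higher and 1 was lower on the deficient diet (10.1% of all genes called, 6.19% higher and 3.95% lower). In jejunal nodes 0 were higher and 1 lower (4.55% called, 2.75% higher and 1.8% lower). In ileal nodes 2 were higher and 2 lower (5.7% called, 2.74% higher and 2.96% lower), and in colonic nodes 0 were higher and 1 lower (2.22% called, 1.28% higher and 0.946% lower). In inguinal nodes 0 were called by edgeR (0.838% of all genes, 0.538% higher and 0.299% lower), with 4 at an unadjusted p under 0.05, and limma-voom and DESeq2 called 0 and 0. The member medians lay between -0.10 and 0.06, and those of all genes between 0 and 0.02.

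Col12a1 made up 3 of the 7 calls. In ileal nodes it fell from the sufficient levels of 35.3 to 62.1 CPM to deficient levels of 12.3 to 19.3 CPM given above, without overlap. The log2 fold change was -1.51 ± 0.16 (adjusted p = 5.2e-09). The highest sufficient ileal levels, 54.1 to 62.1 CPM, were those of the 3 male libraries. The 2 female libraries measured 39.7 and 35.3 CPM, above all deficient ones, and with female mice only the gene was still called (-1.21 ± 0.19, adjusted p = 4.0e-04). In jejunal nodes Col12a1 measured 61.4, 54.3, 76.1, 62.9 and 63.3 CPM on the sufficient and 31.6, 37.2, 35.7, 28 and 28.7 CPM on the deficient diet. Those groups did not overlap either, and the gene fell by 0.89 ± 0.15 on the log2 scale (adjusted p = 1.4e-04).

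In colonic nodes Col12a1 measured 42, 32.2, 36, 37.5 and 33.9 CPM on the sufficient and 23, 20.4, 21.3, 17.4 and 22.7 CPM on the deficient diet. The groups did not overlap and the log2 fold change was -0.71 ± 0.16 (adjusted p = 0.00614). The colonic call was lost without sufficient library 1 of each node (-0.46 ± 0.15, adjusted p = 0.114) and without the 10 libraries low in Gm19220 (-0.76 ± 0.22, adjusted p = 0.105). In duodenal and inguinal nodes Col12a1 was not called. The mean level there was 48.2 ± 7.55 and 39.6 ± 3.89 CPM in sufficient and deficient duodenal nodes, and 15.7 ± 3.37 and 12.1 ± 2.88 CPM in inguinal nodes.

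The diet difference of Col12a1 differed between the ends of the small intestine, by an interaction of 1.31 ± 0.20 on the log2 scale (adjusted p = 7.8e-04). This comparison was added after the data were seen, and 0.223% of all genes were called in it (0.185% higher and 0.0381% lower), with 1 collagen among them. It was not called with female mice only (0.99 ± 0.28, adjusted p = 0.525), which leaves 2 sufficient libraries per node. The mean count ratio of Col12a1 to Col14a1, another FACIT, was 0.761 ± 0.149 in sufficient and 0.357 ± 0.0698 in deficient ileal nodes. In duodenal nodes that ratio was 0.855 ± 0.142 and 0.862 ± 0.201. Col14a1 itself was not called between diets in any node; its ileal levels averaged 64.4 ± 5.27 CPM on the sufficient and 46.1 ± 8.34 CPM on the deficient diet.

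**Figure D4:**
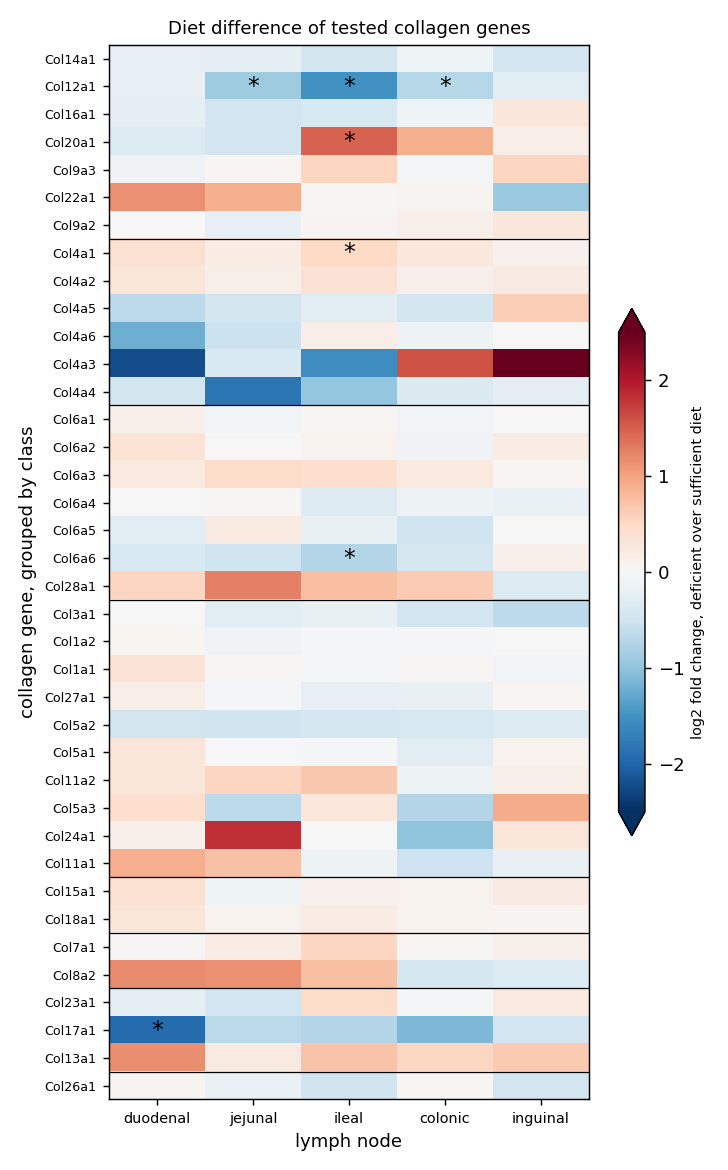
Log2 fold change of the deficient over the sufficient diet (colour, limited to 2.5 in either direction) for the 38 tested collagens (rows, grouped by class) in each node (columns). Stars mark the 7 calls, 3 of them in the Col12a1 row; 1 cell, Col4a3 in inguinal nodes, lies beyond the colour limit and was not called.

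The other ileal calls were smaller or less secure. Col4a1 measured 174, 183, 208, 164 and 162 CPM on the sufficient and 237, 257, 211, 283 and 262 CPM on the deficient diet, where every library was higher than every sufficient one. Its log2 fold change was 0.49 ± 0.15 (adjusted p = 0.0365), and the call was lost in 6 of 21 alternatives. Its pair Col4a2 averaged 122 ± 6.38 CPM on the sufficient and 163 ± 25.2 CPM on the deficient diet and was not called. Col20a1, a FACIT of little known function, measured 3.25, 4.09, 4.45, 2.93 and 2.44 CPM on the sufficient and 7.33, 6.85, 8.77, 11.8 and 7 CPM on the deficient diet. These groups were apart, and the gene rose by 1.47 ± 0.40 (adjusted p = 0.019), a call lost in 4 of 21 alternatives. Exons of Col20a1 overlap those of BX649560.1 on the same strand.

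Col6a6 in ileal nodes was lower on the deficient diet by -0.74 ± 0.23 (adjusted p = 0.0444), with overlapping libraries and the call lost in 12 of 21 alternatives. In duodenal nodes the 1 call was Col17a1, a transmembrane collagen of epithelial hemidesmosomes, which fell from 6.5, 2.49, 3.60, 5.68 and 7.43 CPM to 1.46, 1.19, 2.72, 2.26 and 0.574 CPM. The groups overlapped by 1 library each way, and the log2 fold change was -1.92 ± 0.47 (adjusted p = 0.00523). That call was lost with female mice only. Type I collagen and Col3a1 were not called in any node. In ileal nodes Col1a1 averaged 162 ± 38.9 and 176 ± 33 CPM, Col1a2 254 ± 45.2 and 250 ± 26.1 CPM, and Col3a1 297 ± 55.7 and 281 ± 51.8 CPM on the sufficient and deficient diets.

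Markers of stromal and lymphoid cells were read in the nodes where Col12a1 fell. Of the 12 fibroblast markers 1 was higher and 0 lower in ileal nodes (sums of 687 to 1314 and 594 to 1066 CPM), 2 were lower and 0 higher in jejunal nodes (1299 to 1642 and 820 to 1351 CPM), and 0 were called in colonic nodes by edgeR. The reticular stroma list of 10 had 1 higher and 2 lower in ileal and in jejunal nodes. It shares Pdpn and Ccl21a with the lymphatic endothelial list. In ileal nodes 5 of 7 T cell markers were higher and 2 of 8 lymphatic endothelial markers lower on the deficient diet. The part of these shifts in the fall of Col12a1 was not tested.

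Among the 33 maturation enzymes tested, 3 rose and 3 fell in duodenal nodes, where 6.19% of all genes rose and 3.95% fell. In jejunal nodes 1 rose and 3 fell (2.75% and 1.8% of all genes), and in ileal nodes 1 rose and 2 fell (2.74% and 2.96%). By edgeR 0 were called in colonic nodes. In inguinal nodes the 1 call was Plod3, another lysyl hydroxylase (0.34 ± 0.09, adjusted p = 0.0428), which was lost in 17 of 21 alternatives. Loxl2 fell in duodenal (-0.78 ± 0.18, adjusted p = 0.00275), jejunal (-0.73 ± 0.18, adjusted p = 0.00808) and ileal nodes (-0.76 ± 0.17, adjusted p = 0.00388). All 3 Loxl2 calls were lost in a fit with no sex term, and those in jejunal and ileal nodes also with female mice only, and the jejunal one without sufficient library 1 of each node. Adamts14, a protease that trims the N-terminal propeptide of fibrillar collagens, rose in the same 3 nodes, by 0.81 ± 0.20 (adjusted p = 0.00502), 0.68 ± 0.19 (adjusted p = 0.0269) and 0.69 ± 0.19 (adjusted p = 0.0213). It measured 8.01, 6.63, 5, 4.61 and 6.31 CPM in sufficient and 10.9, 11.2, 9.05, 11.5 and 11.9 CPM in deficient jejunal libraries, which did not overlap. Its ileal call was lost in 6 of 21 alternatives and its duodenal call without sufficient library 2 of each node. Plod2, the lysyl hydroxylase of the collagen ends, fell in jejunal nodes (-1.75 ± 0.36, adjusted p = 0.0014), a call lost without sufficient library 2 of each node and with no sex term. Plod2 was also lower in duodenal nodes (-1.25 ± 0.37, adjusted p = 0.0228). Lox fell in jejunal nodes (-0.89 ± 0.25, adjusted p = 0.0253). Plod3 rose in duodenal nodes (0.31 ± 0.09, adjusted p = 0.0166) and Sec23a fell in ileal nodes (-0.41 ± 0.10, adjusted p = 0.00755). The calls of Lox, Plod3 and Sec23a were lost in 6, 8 and 5 of 21 alternatives.

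Itga1 fell in duodenal (-0.46 ± 0.08, adjusted p = 8.5e-05), jejunal (-0.40 ± 0.08, adjusted p = 0.00116) and ileal nodes (-0.74 ± 0.08, adjusted p = 9.8e-09). In ileal nodes it measured 69.9, 79.1, 72.3, 76.3 and 63.8 CPM on the sufficient and 50.5, 51.8, 40.8, 46.4 and 41.6 CPM on the deficient diet, and the groups did not overlap in any of these 3 nodes. In inguinal nodes it averaged 42.1 ± 4.47 and 41.4 ± 2.14 CPM and was not called. Ddr2, a receptor kinase for fibrillar collagen, fell in duodenal nodes (-0.73 ± 0.18, adjusted p = 0.0052), a call lost with no sex term and with female mice only. Ddr1 fell there too (-0.63 ± 0.20, adjusted p = 0.0386), a call lost in 11 of 21 alternatives.

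**Figure D5:**
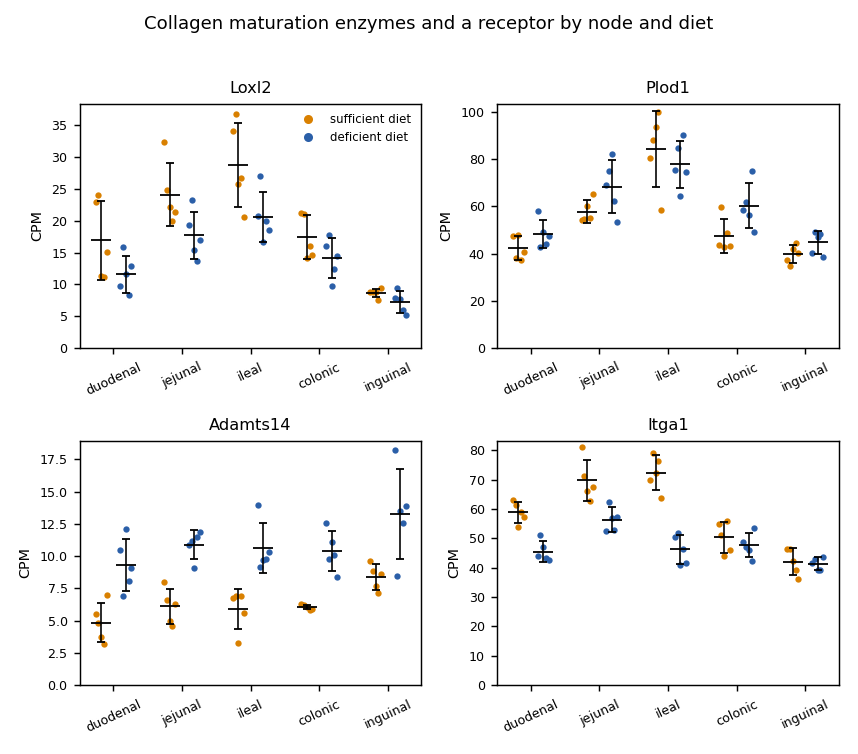
Levels (vertical axes, CPM) of 3 collagen-modifying enzymes and the collagen receptor chain Itga1 by node (horizontal axis); points are the 5 libraries of a group, black bars mean and SD, orange the sufficient and blue the deficient diet. Plod1 has its highest means in ileal nodes (84.2 and 77.9 CPM), and the sufficient and deficient libraries of Itga1 are apart in duodenal, jejunal and ileal nodes.

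Whether the difference between gut-draining and inguinal nodes depended on diet was tested gene by gene. The interaction of region and diet called 0 of 38 members by edgeR (0.919% of all genes, 0.397% higher and 0.522% lower), with 8 at an unadjusted p under 0.05. Those 8 included Col4a5 (-1.08 ± 0.36, adjusted p = 0.173) and Col22a1 (1.46 ± 0.48, adjusted p = 0.155), 1 of which was called on the sufficient diet only and the other on the deficient diet only.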

How the data were processed

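RNA was measured in 50 lymph node libraries, in 10 groups of 5 by diet and node. The authors deposited estimated counts per gene, made with kallisto per the submitters' processing notes, which also name limma, edgeR, GRCm39 and mm10 without their roles. After rounding to integers, low genes were removed with filterByExpr, libraries were scaled by TMM and models fitted with edgeR 4.0.16 (R 4.3.3) by the quasi-likelihood test, with 10 group means and a sex term over all 50 libraries. Benjamini-Hochberg adjustment ran over 18387 genes with a threshold of 0.05. Standard errors are the fold change divided by the square root of F, so approximate. Totals of 5335369 to 8904722 counts limit precision for low members. The fit was tested on simulated data. Gene positions are from GENCODE M21 and promoters from a RefSeq table; which strand was counted is not stated per the labels, so genes with overlapping exons are uncertain.

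The fit was repeated with DESeq2 1.42.0, with limma-voom (limma 3.58.1), with RLE size factors, without the filter, with a filter of 1 CPM in 5 or more libraries, without the sex term, on females alone, with a replicate block and leaving out each replicate number of a diet. After the data were seen, fits were added without the 10 libraries low in Gm19220, with a term for them, and without the 2 high in pancreatic genes, as was 1 comparison. Collagens named are those called in a comparison and the highest and lowest of each class, and for enzymes and receptors the 3 lowest adjusted p-values per comparison; others named were chosen after their values were seen. The members and gene lists were chosen with earlier results of these data known.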

Additional observations from a re-analysis of the deposited data

Results flagged for a closer look

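Within each group of 5 libraries, a collagen level was picked out when its gap to the nearest other library took up more than 0.71 of the group's range. This was read for 24 members in 240 groups, of which 18 were picked out, while chance flags about 1 in 20 groups.

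Among fibrillar genes, sufficient ileal library 2 was highest for Col1a1 (229 CPM, next 154) and Col1a2 (333 CPM, next 243). Col5a1 was lowest in sufficient duodenal library 4 (15.8 CPM, next 23.9) and highest in sufficient colonic library 2 (41.8 CPM, next 32.6). Col5a3 was highest in deficient colonic library 4 (28.4 CPM, next 10.9). Col27a1 was lowest in deficient jejunal library 4 (32.3 CPM, next 38.9).

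Of the basement membrane and type VI genes, Col4a5 was lowest in sufficient ileal library 5 (1.51 CPM, next 4.43) and Col6a2 in sufficient duodenal library 4 (26.5 CPM, next 47). Col6a5 was highest in sufficient ileal library 2 (25.2 CPM, next 14.4) and in sufficient inguinal library 4 (32.8 CPM, next 21.5).

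Col7a1 was highest in the 2 duodenal libraries rich in pancreatic genes, sufficient library 5 (77.2 CPM, next 10.7) and deficient library 4 (48.9 CPM, next 13.7), and in sufficient jejunal library 3 (16.8 CPM, next 4.46). Col17a1 was highest in sufficient inguinal library 2 (8.03 CPM, next 4.37) and deficient colonic library 1 (4.29 CPM, next 2.13). Col20a1 was highest in sufficient colonic library 3 (7.26 CPM, next 3.72) and sufficient inguinal library 4 (12.6 CPM, next 4.57), and lowest in deficient duodenal library 2 (2.65 CPM, next 4.94).

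The diet difference of Col12a1 differed between duodenal and ileal nodes by 1.31 on the log2 scale in a test of the difference itself. That comparison was added after the data were seen, and its Col12a1 call was lost with female mice only.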

How the results depend on the processing

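Of 81 called fold changes, 804 of 891 values under other settings stayed called in the same direction, 87 lost the call and 0 reversed, and on leaving out 1 replicate number 436 of 525 stayed and 89 lost it. The cause of each move was not tested, though fits on fewer libraries have less power.

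With female mice only, the collagens called numbered 7 for gut-draining against inguinal nodes on the sufficient diet, 1 for small intestinal against colonic nodes on either diet, and 0 (sufficient) and 2 (deficient) for duodenal against ileal nodes. The diet counts became 0 in duodenal and 1 in ileal nodes, and that of the added interaction 0. Without the 10 libraries low in Gm19220 they were 6 for gut-draining against inguinal nodes (deficient), 1 for small intestinal against colonic (deficient), 2 for duodenal against ileal (deficient), and for diet 2 in duodenal and 0 in colonic nodes. Deficient small intestinal against colonic nodes gave 1 also with no filter, no sex term or a Gm19220 term. Deficient duodenal against ileal nodes gave 2 with no filter, limma-voom, a Gm19220 term or without the pancreatic libraries, and 3 with DESeq2. The jejunal diet count was 2 with no sex term.

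Leaving out 1 replicate number gave counts of 10 to 12 and 9 to 10 for gut-draining against inguinal nodes (sufficient, deficient), 3 and 1 to 2 for small intestinal against colonic, and 2 to 4 and 1 to 2 for duodenal against ileal. For diet they were 1 to 2 in duodenal, 1 to 2 in jejunal, 1 to 4 in ileal, 0 to 1 in colonic and 0 in inguinal nodes.

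Levels were centred on the mean of each group and sex before libraries were correlated. Where same-number pairs lie above 0, this pushes pairs of different numbers below it, so the latter are no independent baseline. Same-number libraries were more alike than others: 33 of 50 sufficient and 34 of 50 deficient same-number pairs correlated above 0.1 (medians 0.134 and 0.127), against 13 of 80 and 26 of 200 pairs of different numbers (medians -0.0967 and -0.0446). As not every pair did, the main fit did not use the pairing. That rule cannot decide whether a number stands for a mouse, since a shared mouse need not lift every pair. The p-values of the main fit make no allowance for shared mice. The consensus correlation within a number was 0.115. With the replicate block, the 6 within-diet counts were 13, 12, 4, 3, 6 and 2, in the order above, the diet counts 1, 1, 4, 1 and 0 from duodenal to inguinal nodes, and the interactions 1 and 0. The within-diet and interaction counts came from edgeR with fixed replicate terms in place of the sex term. The diet counts came from limma-voom with the sex term and the replicate number as a random block.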
